A study of Canis lupus familiaris with 28 samples.

Results

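The common reference of this study was a pool of RNA from the whole blood of 13 healthy dogs, and it was measured in the Cy3 (green) channel of all 28 arrays. The pool therefore gives a picture of which transcripts were bright, moderate or undetected in normal canine blood, repeated 28 times. Members were all genes with a symbol on the canine array, 13460 of them, covered by 21746 of the 43603 probes. The remaining 21857 probes carry only a locus number, an accession or a transcript identifier. For each gene the probe with the highest median Cy3 signal was taken, and genes were ranked by this median. A level below is the quantile normalized processed signal on the log2 scale, so a step of 1 is a factor of 2. A rank compares the signals of different probes, which depend on the sequence of the probe as well as on the amount of RNA, so it is no measure of transcript number.

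The Cy5 (red) channel of each array carried whole blood RNA of 1 dog, in all 20 AD dogs (with atopic dermatitis) and 8 healthy dogs of several breeds, and the groups of dogs were not compared. The pool held equal amounts of RNA from 13 other healthy dogs, so the spread between those dogs cannot be seen. There were 8 slides and 5 scan days, and each slide held dogs of 1 group. The 8 healthy dogs were on slides 2 and 3, both of scan day 2. In blood RNA, fewer cells of a type and less RNA per cell cannot be told apart.

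Some of the 60-base probes behind the ranking are shown first, because very different kinds of sequence shared its top. The probes of the cell markers read as ordinary coding sequence, and those of CD3E and CD79A stood far below the top. They are printed 5′ to 3′ in lower case, with the position the array files give on the canFam3 build: S100A8 at chr7:43541449-43541508 on the plus strand, S100A12 at chr7:43555298-43555357 on the plus strand, CD3E at chr5:15405920-15405979 on the minus strand, CD79A at chr1:112412925-112412984 on the minus strand, and the brighter probe of a locus described as hemoglobin subunit beta-like at chr21:28182446-28182505 on the minus strand.
S100A8: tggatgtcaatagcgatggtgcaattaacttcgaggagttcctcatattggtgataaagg
S100A12: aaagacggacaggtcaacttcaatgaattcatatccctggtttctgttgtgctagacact
CD3E: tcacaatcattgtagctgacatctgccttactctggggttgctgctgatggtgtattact
CD79A: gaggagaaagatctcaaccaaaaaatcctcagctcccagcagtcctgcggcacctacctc
hemoglobin subunit beta-like: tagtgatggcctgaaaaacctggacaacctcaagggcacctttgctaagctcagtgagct

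The probes of several of the brightest named genes shared instead a run rich in C and T, often followed by a tail rich in A and T. Capitals mark 3 of the motifs searched, TCTCTGCC, AATAAATAAA and CTCTCTCT. The probe of INPP5K lies at chr9:45659541-45659600 on the minus strand, that of IVD at chr30:7594533-7594592 on the plus strand and that of PTK7 at chr12:11658280-11658339 on the plus strand. The 2 bright RHAG probes lie at chr1:62634099-62634158 on the plus strand and at chr12:17433665-17433724 on the minus strand. The last 2 lines are dim probes of the same symbols, RHAG at chr12:17434288-17434347 and IVD at chr30:7588890-7590099, which hold none of the motifs.
INPP5K, log2 signal 19.15: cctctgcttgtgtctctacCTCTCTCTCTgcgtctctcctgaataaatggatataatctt
IVD, log2 signal 19.03: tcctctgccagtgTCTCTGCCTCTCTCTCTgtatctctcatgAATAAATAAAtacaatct
PTK7, log2 signal 18.83: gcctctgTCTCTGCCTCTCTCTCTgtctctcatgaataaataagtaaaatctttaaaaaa
RHAG, log2 signal 18.81: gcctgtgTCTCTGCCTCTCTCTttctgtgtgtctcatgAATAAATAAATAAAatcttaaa
RHAG, log2 signal 18.46: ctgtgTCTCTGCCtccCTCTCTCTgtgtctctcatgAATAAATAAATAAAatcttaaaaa
RHAG, log2 signal 7.22: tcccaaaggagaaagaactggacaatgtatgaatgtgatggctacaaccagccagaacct
IVD, log2 signal 7.44: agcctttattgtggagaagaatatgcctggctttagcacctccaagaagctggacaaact

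Blood RNA comes from a few very different sources. Reticulocytes and their precursors carry globin and heme synthesis transcripts, and platelets carry transcripts left by megakaryocytes. Neutrophils and monocytes carry transcripts of the calcium-binding proteins S100A8, S100A9 and S100A12. Lymphocytes add receptor complexes such as CD3 on T cells and CD79 on B cells, and all cells contribute transcripts of ribosomes, actin and mitochondria. The dog genome also holds very many copies of a short interspersed element derived from a transfer RNA, whose end is a CT-rich stretch and an A/T-rich tail. Transcripts of many genes carry such copies in their untranslated or intronic parts.

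The beta globin-like locus was the brightest of the blood cell markers. The symbol HBB itself was not analysed here, and this locus, known on the array only by a number, stands outside the ranking. Its brighter probe had a lowest value of 18.11, a median of 19.10 and a highest value of 19.62 over the 28 arrays (SD 0.48), which would place it at rank 2 among the named genes. It was the brightest of all 43603 probes on 6 arrays and among the 10 brightest on 15. The second probe of the locus had a median of 18.54 (SD 0.49). Both SDs were larger than those of the 30 brightest named genes with the exception of C6H16orf5. The probes did not pass the test over slides described below (adjusted p = 0.371 and 0.509, limma).

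The S100 genes followed. S100A12, a calcium-binding protein of neutrophils and monocytes, ranged from 17.03 over a median of 17.16 to 17.46 (SD 0.12) and held rank 54. S100A8, which pairs with S100A9, ranged from 16.82 over 17.14 to 17.41 (SD 0.14) at rank 55, and S100A9 had a median of 16.88 (SD 0.18). S100A8 and S100A12 differed by less than 1 SD. Neither passed a test of differences between slides, with adjusted p = 0.924 for S100A8 and 0.386 for S100A12 in limma's moderated F test over slides.

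The given lymphocyte markers, CD3E and CD79A, were far lower. CD3E, a chain of the T cell receptor complex, ranged from 9.98 over 10.56 to 10.98 (SD 0.24) at rank 2811, the percentile 79.1. CD79A, a signaling chain of the B cell receptor, ranged from 8.09 over 8.41 to 8.83 (SD 0.17) at rank 6032, the percentile 55.2. Both were well above background on all 28 arrays. No level of one array overlapped between S100A8, CD3E and CD79A. The gap is one between these markers and not between whole cell types. Other lymphocyte genes were brighter, such as LCK at 13.87 and IGJ at 13.57. In the gene lists described below, the neutrophil median was 10.86, the T cell median 10.15 and the B cell median 8.51. PF4, the platelet marker, was not analysed here under that symbol.

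**Figure D1:**
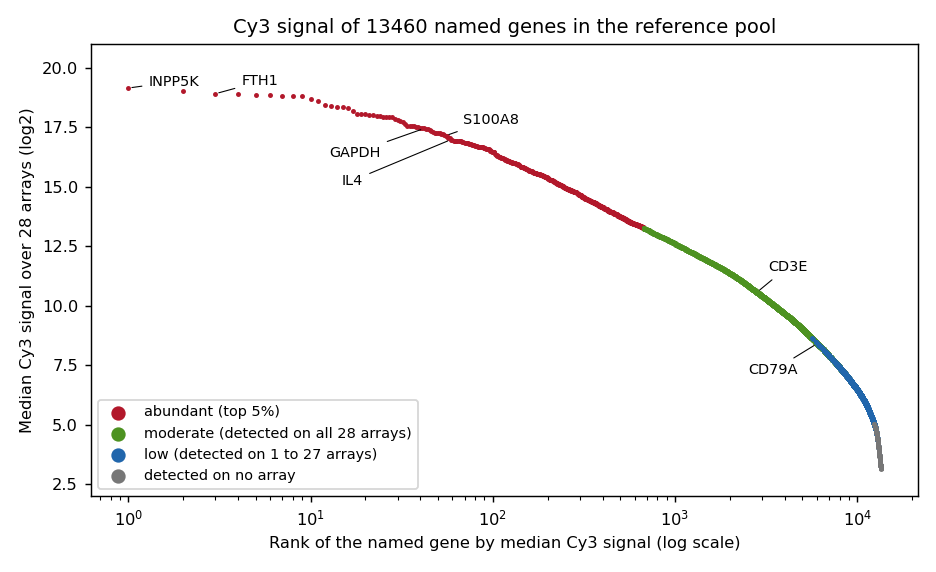
Median Cy3 signal over 28 arrays (log2, y axis) against the rank of each of the 13460 named genes (x axis, log scale), colored by class. The abundant class ends at a log2 signal of 13.27, S100A8 lies at rank 55, CD3E at rank 2811 and CD79A at rank 6032.

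Abundant genes were defined as the top 5% of the named genes, which gave 673 genes with medians from 13.27 to 19.15. The border was not a gap: SPTBN1, TMEM147 and CRELD1 stood just inside at 13.27, and NRROS, IFNA7 and VENTX just outside, from 13.26 to 13.25. A further 7984 genes, the moderate class, were well above background on all 28 arrays, with medians from 5.88 to 13.26. A low class of 4375 genes was detected on 1 to 27 arrays, and 428 genes were detected on no array by any probe, with medians from 3.16 to 5.02. The classes also differed in probe number. Only 1 probe was present for 93.5% of the undetected, 78.3% of the low and 33.0% of the abundant genes, and for 60.2% of all named genes. A gene with more probes has more chances of a bright or detected one. In all, 64.3% of the named genes were detected on every array. The 50 brightest probes of an array took 15.9% to 26.7% of its total Cy3 signal and the 500 brightest took 56.2% to 68.8%.

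The 30 brightest named genes fell into 3 sorts. The first were transcripts known to be plentiful in many cells: FTH1, the ferritin heavy chain that stores iron, at 18.91 (SD 0.25), TPT1, the translationally controlled tumor protein, at 18.81 (SD 0.32), ACTB, beta-actin, at 18.37 (SD 0.14), GPX1, a glutathione peroxidase, at 18.07 (SD 0.32) and B2M, the light chain of MHC class I, at 18.05 (SD 0.21). With them stood the mitochondrially encoded oxidase subunits COX2 at 18.04 and COX3 at 17.82, the ribosomal proteins RPS14 at 18.04 and RPS4X at 17.98, and the MHC class II chain HLA-DRB1 at 17.95. SERPINA1, the alpha-1 antitrypsin made by liver and also by neutrophils and monocytes, had 18.33 (SD 0.19).

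The second sort were 13 genes whose probe held a searched motif: INPP5K, IVD, LRRC28, RPL22L1, FBF1, PTK7, RHAG, SH3YL1, IRF9, ECHS1, SEPW1, ANKRD23 and RHOG. INPP5K, an inositol phosphatase, was the brightest named gene of all, at 19.15 (SD 0.15), and IVD, an enzyme of leucine breakdown, was next at 19.03 (SD 0.16). Over all named genes 0.579% had such a probe. In 11 of the 13, the next brightest probe of the same gene was more than 10-fold dimmer. Of the 17 genes without a motif, 11 had a further probe, and in 2 of these it was more than 10-fold dimmer. Each gene stands by its brightest probe and the motifs were read off the brightest probes, so this contrast is a description and no test. Over the whole abundant class the contrast was smaller. Among genes with a further probe, the next brightest was more than 10-fold dimmer in 22 of 30 with a motif and in 184 of 421 without. In 116 of all 451 it was within 2-fold.

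The third sort were probes of high GC content. In 5 of the 30 the gene had a probe with more than 60% G and C, against 2.59% of all named genes. They were AMELX, an enamel protein, at 18.45 (SD 0.37), AMN, a receptor part for vitamin B12 uptake, at 18.32 (SD 0.29), EPN2 at 17.96 (SD 0.27), PCSK1N, an inhibitor of a prohormone convertase, at 17.95 (SD 0.43) and CAPN15 at 17.91 (SD 0.39). AMELX, AMN, EPN2 and PCSK1N had 1 probe each, so no second probe could be set beside the first. The last of the 30, C6H16orf5, had 18.60 with the largest SD of the abundant class, 0.50, and its other probe had 9.29.

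The steps in this order were small. All 29 neighboring pairs among the 30 brightest genes differed by less than the larger of their SDs over single arrays, and the median step was 0.02. Whether neighbors differ on the average of 28 arrays was not tested. INPP5K moved between rank 1 and 7 from array to array, FTH1 between 1 and 14, C6H16orf5 between 1 and 31 and S100A8 between 45 and 71. Membership in the abundant class was steadier, since each single array placed 634 to 657 of the 673 genes in its own top 5%.

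The motifs were read off the brightest probes, so their share there is a description and no test. TCTCTGCC stood in 96 probes (0.22% of all), AATAAATAAA in 75 (0.172%), CTCTCTCT in 120 (0.275%) and GTGTGTGTGT in 33 (0.0757%). TCTCTGCC and CTCTCTCT can overlap, and 280 probes (0.642%) held at least 1 of the 4. Of the 50 brightest probes on the array, 30 of which have no gene symbol, 29 held a motif. The median level of all probes was 7.13, of the probes with TCTCTGCC 11.06, with AATAAATAAA 13.29, with CTCTCTCT 14.63 and with GTGTGTGTGT 12.60. On the other strand the levels were lower: the reverse complements GGCAGAGA, TTTATTTATT, AGAGAGAG and ACACACACAC had medians of 7.41, 5.90, 7.63 and 8.18, and together 0 of the 50 brightest probes. Whether these probes bind transcripts that carry the interspersed element was not tested.

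The difference was plainest within a gene. PTK7, a receptor-like kinase, had 18.83 by the probe printed above and 6.79 by its other probe, which was detected on 21 arrays. FBF1 had 18.84 against 7.73 and 7.56. LRRC28 had 18.89 by a probe placed on chromosome 2 and 10.83 and 6.47 by probes on chromosome 3. IL4, the cytokine of type 2 helper T cells, had rank 59 of the named genes by 1 probe of 16.98, which holds CTCTCTCT and lies at chr11:20973117-20973176, upstream of the others. Its 3 other probes, between chr11:20978692-20981365 and chr11:20981385-20981444, had 6.18, 5.92 and 5.78 and were detected on 21, 18 and 17 arrays. The sequences of the bright and of the brightest dim probe of IL4 show the contrast, with the motif in capitals.
IL4, log2 signal 16.98: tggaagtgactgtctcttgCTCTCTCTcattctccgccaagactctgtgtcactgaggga
IL4, log2 signal 6.18: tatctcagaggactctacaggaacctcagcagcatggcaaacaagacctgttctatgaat

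Without the 280 probes that hold a motif, INPP5K had the percentile 94.6, IVD 41.1, RHAG 37.8, PTK7 31.0 and IL4 21.4, while S100A8 stood at 99.7 and GAPDH at 99.8. Of the 673 abundant genes, 637 were then still in the top 5%. RPE65, the retinal isomerase of the visual cycle, was a further case: 15.03 by a probe with a motif and 4.74 by its other probe.

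**Figure D2:**
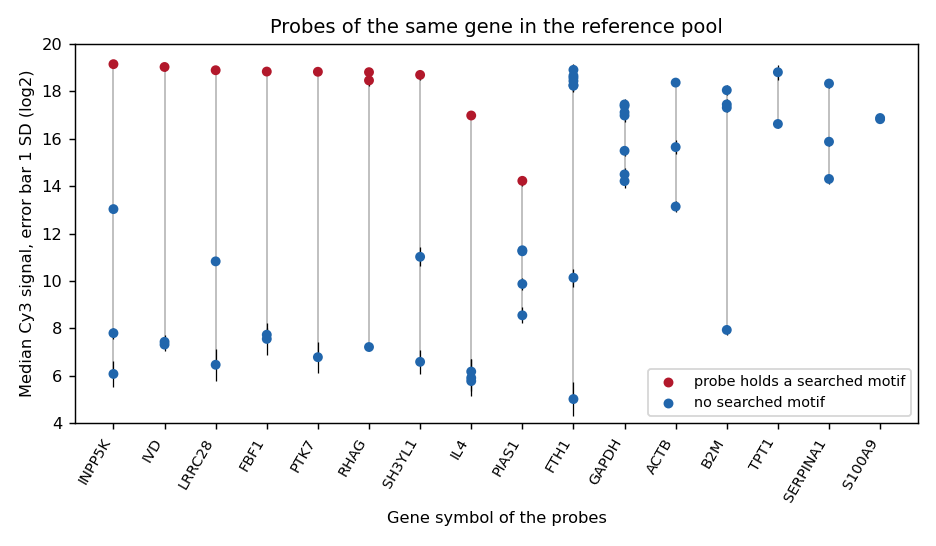
Median Cy3 signal of every probe of 16 genes (log2, y axis), with error bars of 1 SD over 28 arrays. Probes with a searched motif (red) lie at 14.23 to 19.15, and all other probes (blue) of these 9 genes lie at 13.03 or lower. The S100A9 probes and the 6 brightest FTH1 probes lie close together.

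Genes without a motif also differed between their probes. Among the 3353 genes with 2 probes, the median difference was 1.54, and 593 genes (17.7%) had probes more than 10-fold apart. The interquartile range of all named genes was 3.68, for comparison. In 2559 genes with 2 probes on 1 chromosome and strand and at least 1 probe detected on all arrays, the probe nearer the 3′ end was the brighter in 1780 (69.6%). The median difference of the 3′ from the 5′ probe over all 2559 genes was 1.06. Without pairs that hold a motif probe, the share was 69.5% and the median difference 1.05 (2536 genes). With probes over 2000 bases apart on the genome the share was 73.2% (1325 genes), and with probes within 60 bases it was 42.5% (179 genes). The part of RNA quality or of the labeling in this order was not tested.

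GAPDH, the glycolytic enzyme often used as a reference gene, showed this order along 1 gene on the minus strand of chromosome 27. Its 4 probes nearest the 3′ end, which share most of their bases and start at chr27:38468956-38469124, had 17.45, 17.38, 17.12 and 16.98. The probe at chr27:38469919-38469978 had 15.49, that at chr27:38469988-38470145 had 14.50 and the farthest, at chr27:38470592-38470734, had 14.22. ACTB fell in the same way, from 18.37 by its probe nearest the 3′ end over 15.65 to 13.14. The 6 probes of FTH1 on a plus strand, 5 on chromosome 18 and 1 on chromosome 11, lay between 18.24 and 18.91, while 2 probes placed on the minus strand of chromosome 18 had 10.14 and 5.02. B2M had 3 probes on chromosome 30 from 17.31 to 18.05, and a probe placed on chromosome 2 with 7.94.

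Among the lists of genes by cell type and function, ribosomal proteins were nearly all bright. Of 48 with a probe, 42 were abundant and 6 moderate, and their median was 16.41 (all named genes 8.04). RPS14 was highest, RPL13A had 16.38 and RPL34 was lowest at 6.78. Of 7 genes of iron storage and ubiquitin, 6 were abundant, led by FTH1 and FTL, the ferritin light chain, at 17.27. HMOX1, heme oxygenase, was lowest at 7.09. Of 25 actin and cytoskeleton genes 19 were abundant. The list ran from ACTB over ARPC3 at 14.64 to ACTR3 at 3.44, whose 1 probe was detected on no array. The translation elongation genes (9 with a probe, 3 abundant) ran from TPT1 over EEF2 at 13.13 to EEF1E1 at 8.16.

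Energy genes came next. Of the 12 protein genes of the mitochondrial genome 7 were abundant and 5 moderate. COX2 was highest, ND2 had 13.74 and ND1 was lowest at 10.18. The nuclear respiratory chain genes had 13 of 36 abundant and a median of 12.71, with NDUFS5 at 14.83 highest, NDUFC2 at 12.69 in the middle and COX5A at 5.78 lowest. Glycolysis had 8 of 18 abundant and a median of 12.48, from GAPDH over HK3, the hexokinase of leukocytes, at 12.16 to SLC2A3 at 6.84. Cell division genes were much lower, with 1 of 25 abundant (AURKB, 13.58), 22 moderate and a median of 8.56. TPX2 stood at 8.56 and RRM2 was lowest at 5.88.

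Red cell genes spread over nearly the whole scale. Of 32 with a probe 10 were abundant, 19 moderate and 3 low, and their median was 10.91. RHAG, the Rh-associated glycoprotein of the red cell membrane, led the list by the probes with motifs printed above, and its remaining probe had 7.22. ALAS2, the first enzyme of heme synthesis in red cell precursors, had 16.88 (SD 0.18), and AHSP, the chaperone of alpha globin, had 16.26 (SD 0.15). SLC25A37, the mitochondrial iron importer, stood in the middle with 10.93. The membrane skeleton genes ANK1 at 5.68 and SPTB at 7.39 were low.

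Platelet genes had the highest median of the blood cell lists, 12.50, with 9 of 23 abundant, 11 moderate, 2 low and 1 undetected. NRGN, neurogranin, led with 15.62 (SD 0.09), TREML1, a receptor of platelet granules, had 15.23 (SD 0.09) and PPBP, a platelet chemokine, had 14.00. ITGA2B, the integrin chain that binds fibrinogen, stood in the middle with 12.50. TUBB1, the platelet tubulin, was lowest at 3.67 and was detected on no array. A call of this kind does not show that the transcript was absent, since it depends on the probe. GP1BA, a receptor for von Willebrand factor, had 13.74 with an SD of 0.07.

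Neutrophil genes had 13 of 33 abundant, 17 moderate and 3 low, with a median of 10.86. PADI4, the enzyme that citrullinates histones, was highest at 17.21 (SD 0.13), followed by S100A12, S100A8 and S100A9. MPO, myeloperoxidase, was lowest at 5.22. Monocyte genes had 7 of 25 abundant and a median of 10.44. PSAP, a lysosomal protein, led with 17.11 (SD 0.11), LYZ, lysozyme, had 16.79, SPI1 stood in the middle with 10.44 and the chemokine receptor CCR2 was lowest at 6.81. CD14 had 10.28.

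T cell genes had 2 of 27 abundant, 23 moderate and 2 low, with a median of 10.15. LCK, the kinase of the T cell receptor, was highest at 13.87 (SD 0.08), CD3D had 13.38, CD2 stood in the middle with 10.15, and FOXP3 at 6.50 and CCR7 at 6.17 were low. The 3 CD3 chains CD3D, CD3G and CD3E had 13.38, 11.40 and 10.56, each by 1 probe. Cytotoxic and NK genes had 0 of 19 abundant, 16 moderate and 3 low, from CTSW at 12.25 over NCR3 at 8.70 to NCR1 at 4.80. B cell genes had 1 of 18 abundant and a median of 8.51. They ran from IGJ, the joining chain of antibodies, at 13.57 over CD79A at 8.41 to FCER2, the low-affinity IgE receptor. The 1 probe of FCER2 was detected on no array. Eosinophil, basophil and mast cell genes had 0 of 15 abundant, 9 moderate and 6 low. CSF2RB had 10.85, GPR44 8.80 and HDC, the enzyme that makes histamine, 5.18.

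**Figure D3:**
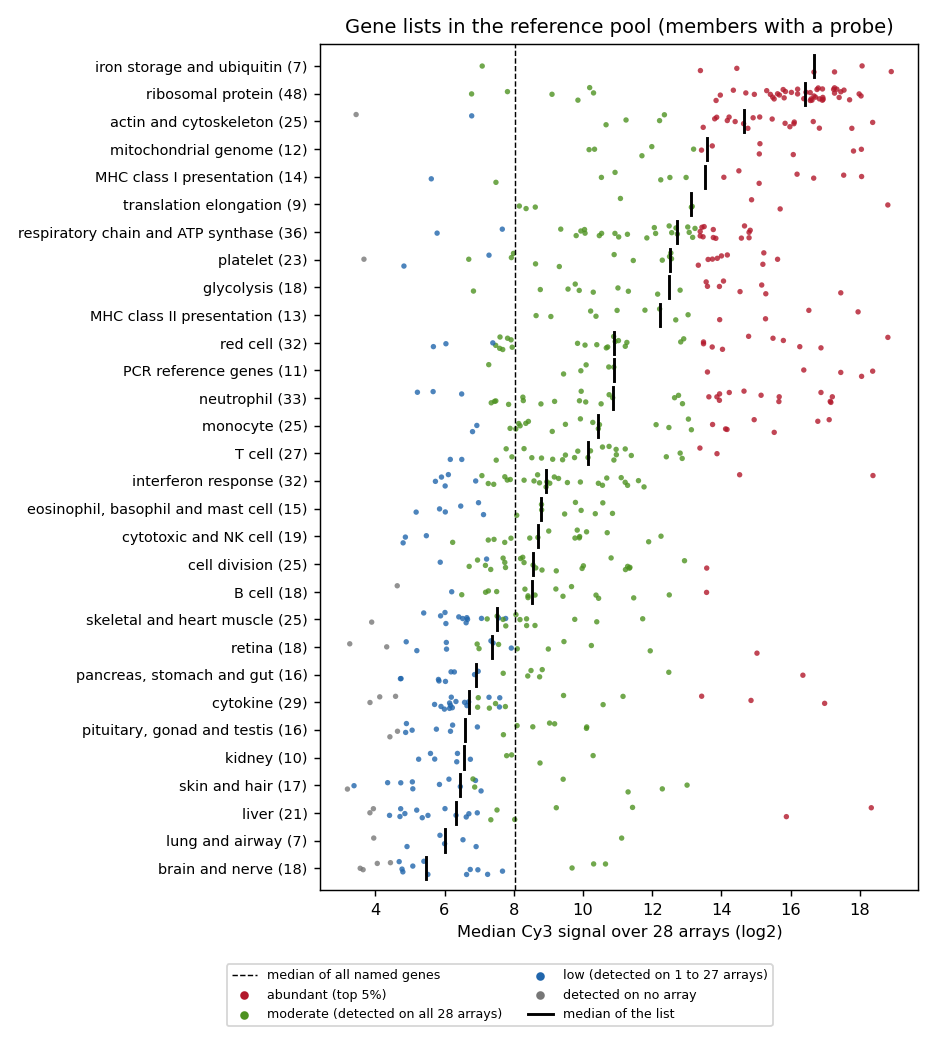
Median Cy3 signal over 28 arrays (log2, x axis) of the members of 30 gene lists (rows, number with a probe in parentheses), colored by class, with the list median as a black bar and the median of all named genes (8.04) as a dashed line. Ribosomal, iron storage and cytoskeleton lists lie to the right, blood cell lists in between, and lists of other tissues and of cytokines to the left.

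Antigen presentation was bright. MHC class I genes had 7 of 14 abundant and a median of 13.53, led by B2M, with DLA-64 at 17.53, DLA-79 at 14.07 and ERAP2, a peptide trimming enzyme, lowest at 5.62. MHC class II genes had 4 of 13 abundant and 9 moderate, led by HLA-DRB1, with DLA-DMA at 12.21 and RFXAP lowest at 8.64. Interferon response genes had 2 of 32 abundant, 25 moderate and 5 low, with a median of 8.95. IRF9 led at 18.38 by a probe with a motif, its other probe had 12.10, ISG20 had 14.53, IFI6 8.93 and DHX58 5.74.

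Cytokine genes were the lowest list among those of immune function, with a median of 6.70 and 15 of 29 in the low class. After IL4, whose rank rests on the probe with a motif, LTB, a membrane-bound lymphotoxin, had 14.86 and IL16 13.43. TNF had 7.76, IL6 6.70 and IFNG 6.33, and IL13, IL21 and IL1A, at 4.58, 4.13 and 3.85, were detected on no array.

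Lists of other tissues had medians below that of all named genes, as the cytokine list had. Of their 148 genes, 4 were abundant (2.70%), 52 moderate, 79 low and 13 undetected, and 37.8% were detected on all arrays against 87.5% of 192 blood cell genes and 64.3% of all named genes. The 4 abundant ones were SERPINA1, FGA, GAST and RPE65. FGA, the fibrinogen alpha chain of the liver, had 15.88 by a probe with 68.3% G and C and at most 7.47 by its 5 other probes. GAST, gastrin of the stomach, had 16.35 by 1 probe. The brain and nerve list had the lowest median, 5.46, with TH at 10.65, MAP2 at 5.40 and SST at 3.56. The lung and airway list (median 6.00) ran from TEKT1 at 11.12 over SFTPC, surfactant protein C, at 6.00 to BPIFA1 at 3.95, and the liver list (6.33) ended with APOC3 at 6.33 and FGG at 3.84.

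Skin and hair genes (6.46) ran from PMEL at 13.01 over KRT2 at 6.46 to DSG3 at 3.19, and kidney genes (6.56) from AQP2 at 10.29 over SLC34A1 at 6.75 to CALB1 at 5.25. The pituitary, gonad and testis list (6.59) ran from GH1 at 10.11 over STAR at 6.95 to CYP19A1 at 4.42. In the pancreas, stomach and gut list (6.92), PNLIP had 6.87 and GCG 4.72. Retina genes (7.37) had CRX at 7.40 and CNGB3 lowest at 3.26. Skeletal and heart muscle genes had the highest median of these lists, 7.52, with MYL1 at 11.73, RYR1 at 7.52 and TTN, the giant titin, at 3.89.

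Repeat measurements of the pool were close for bright genes. The median SD over 28 arrays was 0.151 in the abundant class, which is 11.0% of the signal, 0.196 in the moderate class (14.6%), 0.538 in the low class (45.2%) and 0.553 in the undetected class. With normexp background correction and an offset of 50 this order turned, to 0.144, 0.110, 0.0803 and 0.0677. Pooled within slides the medians were 0.124, 0.153, 0.410 and 0.375. With the genes in 10 equal groups by level, the median SD was 0.602 in the dimmest and 0.149 in the brightest group. The 50 probes printed 5 times on every array had a median SD between spots of 1 array of 0.124. For the 16 of them with a level above 9 it was 0.0786, against 0.145 between arrays.

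**Figure D4:**
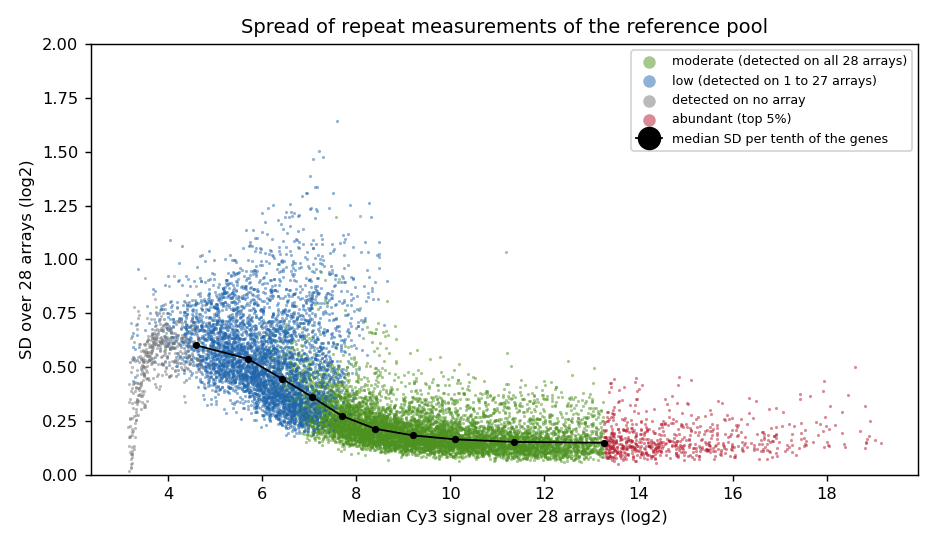
SD over the 28 repeat measurements of the pool (log2, y axis) against median Cy3 signal (log2, x axis) for 13460 named genes, colored by class. The black line joins the median SDs of 10 equal groups of genes by level, which go from 0.602 down to 0.149.

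Within the abundant class the steadiest genes were NDUFAF3, an assembly factor of respiratory complex I, at 13.56 (SD 0.05, from 13.49 to 13.69), PRDX6, an antioxidant enzyme, at 14.38 (SD 0.05), SDHB of respiratory complex II at 13.47 (SD 0.06), ECH1 at 13.93 (SD 0.06) and the chemokine CCL14 at 13.92 (SD 0.07). The least steady were C6H16orf5 (SD 0.50), the melatonin-related receptor GPR50 at 14.87 (SD 0.45), MIOX at 13.94 (SD 0.45), the transcription factor FOXB1 at 13.47 (SD 0.45) and TLN1, talin, at 15.11 (SD 0.44). GC content moved with the spread: the third of the abundant genes with the lowest GC content of the probe had a median SD of 0.135 and the third with the highest had 0.201.

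Arrays did not all measure the pool equally well. The share of probes well above background in Cy3 was 54.9% to 60.2% on the 6 arrays of scan day 5 (slides 7 and 8) and 68.8% to 86.3% on the other 22. Correlation with the median profile was 0.969 to 0.981 on scan day 5 and 0.987 to 0.996 on the others. Without these 6 arrays, 10069 named genes in place of 8657 were detected on every array.

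The same pool was measured in Cy3 on every slide, so the Cy3 RNA did not differ between slides. The Cy5 RNA on the same spots did, it enters the dye normalization, and each slide held dogs of 1 group. Slide, scan day and the dogs on the arrays cannot be told apart in this comparison. By limma's moderated F test over 8 slides with Benjamini-Hochberg adjustment, 22812 of 43603 probes (52.3%) differed, and among the probes that represent named genes 6962 of 13460 (51.7%). With the signal before dye normalization, 21447 probes differed. In the abundant class 219 of 673 genes (32.5%) differed, in the moderate class 4073 of 7984, in the low class 55.0% and in the undetected class 61.9%. Between the 6 slides of scan days 1 to 4, 4165 probes (9.55%) differed, as did 1399 (10.4%) of those that represent named genes and 59 abundant genes (8.77%). In the abundant class, 14.7% of the third with the lowest GC content differed between the 8 slides and 52.2% of the third with the highest.

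CD3E and GAPDH were among the genes that differed (adjusted p = 0.000727 and 0.000226). On the 8 arrays of scan day 2, CD3E ranged from 9.98 to 10.42 and on the other 20 from 10.23 to 10.98, so the ranges overlapped but the medians, 10.20 and 10.64, lay apart. GAPDH ranged from 17.06 to 17.42 on scan day 2, from 17.22 to 17.61 on scan days 3 and 4, from 17.45 to 17.72 on scan day 1 and from 17.64 to 17.91 on scan day 5, so that days 1 and 5 overlapped. Scan day 2 holds all arrays of healthy dogs, so slide, scan day and the dog on the array cannot be told apart for these values. Without scan day 5 the adjusted p was 0.0296 for CD3E and 0.0444 for GAPDH. Among the least steady abundant genes, medians on scan day 5 minus those on the other days were -0.75 for FOXB1, -0.69 for GPR50, 0.64 for MIOX, -0.10 for C6H16orf5 and -0.02 for TLN1.

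**Figure D5:**
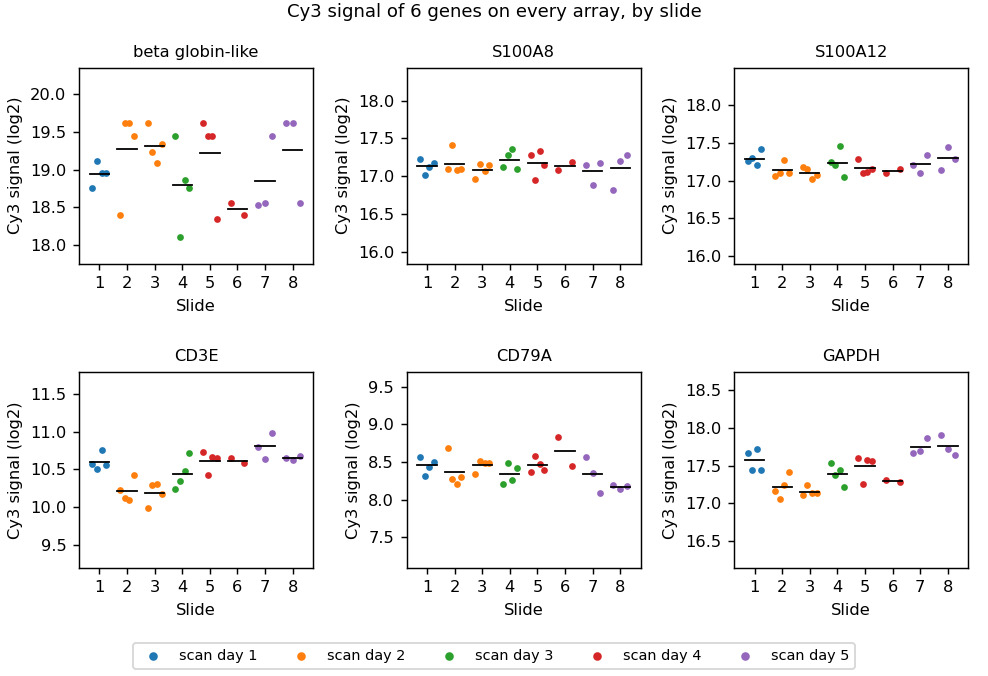
Cy3 signal (log2, y axis, 2.6 units high in every panel) of 6 genes on each of the 28 arrays, by slide (x axis) and colored by scan day, with slide means as bars. S100A8 and S100A12 lie level across slides, CD3E and GAPDH are lowest on slides 2 and 3, and the beta globin-like probe spreads from 18.11 to 19.62.

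The genes the study measured by real-time PCR had these levels in the pool. PIAS1, an inhibitor of STAT signaling, had 14.23 (SD 0.21, rank 379) by a probe that holds a motif, and 11.30, 11.25, 9.88 and 8.55 by its 4 other probes. Its level differed between slides (adjusted p = 0.00317, and 0.122 without scan day 5). SH2B1, an adaptor of cytokine and insulin receptors, had 12.58 (SD 0.26, rank 1008) and 6.39 by its second probe. RORA, a retinoid-related orphan receptor, had 10.36 (SD 0.17, rank 3067) and 6.58 by each of its 2 other probes. RPS19 was not analysed here under that symbol. The list of common PCR reference genes had 5 of 11 abundant and 6 moderate, with HPRT1 at 10.89 and TBP lowest at 7.28.

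The relation between the Cy3 and Cy5 signals of a probe differed from gene to gene. As a description over 28 arrays, Pearson's r between the Cy3 and the Cy5 signal of the same probe had a median of 0.442 over all named genes. By class the median was 0.219 for abundant, 0.385 for moderate, 0.566 for low and 0.624 for undetected genes. The lower quartile of the abundant class was 0.00823, and r was negative for S100A8, S100A12, FTH1, TPT1, ACTB and B2M. The 2 channels share the spot, the hybridization, the slide and the dye normalization. After the slide means were taken off both channels, the median was 0.280 over all named genes, and 0.163, 0.233, 0.371 and 0.293 in the 4 classes in the same order.

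On the 8 arrays of healthy dogs, the spread between dogs could be set beside the spread of the pool. The SD of the dogs in Cy5 also holds the error of the Cy5 measurement. Each dog was measured once, so that error cannot be separated from differences between dogs. In the abundant class the median SD was 0.114 for the pool and 0.306 for the dogs, and the SD of the dogs was the larger in 642 of 673 genes (95.4%). In the moderate class the medians were 0.149 and 0.341 (95.7% larger in dogs). In the low class they were 0.323 and 0.367 (61.8%), and in the undetected class 0.358 and 0.397 (57.7%). The 4 largest median ratios of the 2 SDs among the lists were 4.63 for red cell, 4.55 for platelet, 3.96 for interferon response and 3.46 for cytotoxic and NK cell genes. MHC class II genes had 3.13, monocyte genes 3.02, T cell genes 2.99 and neutrophil genes 2.98. The mitochondrial genome at 2.94, MHC class I at 2.92 and ribosomal proteins at 2.71 came next. The eosinophil, basophil and mast cell list had 2.35, the B cell list 2.05, and brain and nerve genes were last at 1.23. A ratio depends on both SDs, so its order is not that of the spread between dogs. That spread had medians of 0.446 for B cell, 0.397 for brain and nerve, 0.325 for MHC class I and 0.272 for ribosomal protein genes. In the pool the medians were 0.194, 0.336, 0.103 and 0.110 in the same order.

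EMR2, an adhesion receptor of myeloid cells, had the widest ratio in the abundant class, with an SD of 2.35 between dogs and 0.0819 in the pool, and GP1BA had 0.777 and 0.0469. At the other end, probes with and without a motif had smaller SDs between dogs than in the pool. RPL22L1 had 0.0679 between dogs and 0.216 in the pool and FBF1 0.0623 and 0.185, both by a probe with a motif. AMN had 0.134 and 0.279, and IL4R, a chain of the interleukin 4 receptor, 0.123 and 0.253, both without one. FTH1 (0.169 and 0.193) and TPT1 (0.293 and 0.361) also varied less between dogs than in the pool.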

How the data were processed

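Cy3 spot intensities of 28 two-color canine arrays were used. Per the labels, the authors extracted them with Agilent Feature Extraction 10.7.3.1, while the file headers give version 10.10.1.1 and the canFam3 build. The deposited intensity is a processed signal on a linear scale, after background subtraction and Lowess dye normalization by the authors. Outlier and detection marks were taken as deposited, and the authors' processed ratios were not used.

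Here R 4.3.3, limma 3.58.1 and the R package data.table (version 1.17.8) were used. The 43803 spots that are not controls were used. Outlier-marked Cy3 spots were set to missing, spots of 1 probe were averaged, and the log2 values were quantile normalized. A probe needed a value on at least 14 arrays, and no Cy3 spot was saturated. Slides were tested by limma's moderated F test over all probes at an adjusted threshold of 0.05, after a check on simulated data. The arrays are technical repeats of 1 pool, whose number limits the precision, and whether labeling was done once is not given in the sources used here. Of the symbols, 12318 (91.5%) matched RefSeq for the dog. Of 932 probes named by locus number, 547 could be updated to a symbol and stayed outside the ranking.

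Genes named were the 6 given markers, the 30 brightest genes, the highest, middle and lowest member of each list, the 5 most and 5 least spread abundant genes and the genes of the study's PCR. A few of these are not reported here. Other names serve a sentence and were chosen after their values were seen. Members, lists, motifs and alternatives were chosen with earlier results of these data known. The lists of 799 genes had 612 with a probe. Scanner positions, dates and bar codes are not printed.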

Additional observations from a re-analysis of the deposited data

Results flagged for a closer look

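Among S100A8, S100A12, CD3E, CD79A and GAPDH on the 8 arrays of healthy dogs, 1 array stood apart. For S100A8 the array of healthy dog 2 gave a Cy3 level of 17.41 and the other 7 lay from 16.96 to 17.16. The gap to the next array was 0.55 of the whole range of these 8. Cy3 held the same pool on all arrays, and on the other 20 arrays S100A8 ranged from 16.82 to 17.36. Over all 28 arrays the level of 17.41 was therefore close to the next highest. Chance alone separates about 1 in 20 such groups. All the genes named above were searched, so at least 1 such gap among them is likelier than that.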

How the results depend on the processing

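Of the 673 abundant genes, 441 remained in the top 5% when a gene was the mean of its probes and 443 when it was the median. Leaving out 1 slide at a time kept 668 to 673. The median SD of the low class was 1.01 without quantile normalization and 0.0803 with normexp, and that of the undetected class was 0.713 without dye normalization and 0.0677 with normexp, which adds an offset of 50 and so compresses dim values. The number of probes that differed between slides was 22812 (52.3%), 4165 (9.55%) without scan day 5 and 12839 of 22300 (57.5%) when probes well above background on all arrays were tested, and ranged from 16515 to 23732 with 1 slide left out. Of the other 107 values that answer a comparison, 2 moved by over 1.5 times: the median SD of the moderate class was 0.110 with normexp, below that of the abundant class (0.144), and that of the low class was 0.349 without scan day 5. Of the percentiles of single genes, 54 moved by more than the spread between arrays and 235 did not. Most of those that moved did so with another choice of probes. With the mean of the probes of a gene, CD3E went from the percentile 79.1 to 86.6 and CD79A from 55.2 to 61.8. Both have 1 probe, so it was the genes around them that moved. Leaving out probes with a motif, median probes, scan day 5 and updated names were alternatives chosen after seeing the data. No paired analysis was possible because groups of dogs were not compared and every array measured the same pool. Dim genes are limited by signal over background.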
